A study of Xenopus laevis with 9 samples.

Results

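Experiment 3 is the set of 3 arrays, out of 9 in the whole series, whose sample titles end in 3. They were made from 1 of 3 explant experiments, labelled DA2 by the submitters. Experiment 3 holds 1 array of each injected group. It was set against the 6 arrays of experiments 1 and 2 (labelled DA4 and DA5) over all 15491 probe sets, with the injected group as a block. The experiment was selected on the measured values of these same arrays, because its arrays lay farther from the rest than the rest lay from each other. Its differences from experiments 1 and 2 are therefore given as a description, with no test. The replicate of an experiment is the experiment, so the contrast has 1 unit on one side and 2 on the other.

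The material was cranial neural crest dissected from Xenopus laevis embryos and extracted at once. Every embryo was injected when it was 1 cell and kept at 15 °C until stage 15 to 17 (the source label says stage 17 for every sample). All groups carried 10 ng of a morpholino, an antisense oligonucleotide used to block a transcript. CMO received a control morpholino and MO13 received a morpholino to the metalloprotease ADAM13. MO13+C13 received the same morpholino with mRNA for a GFP-tagged cytoplasmic part of ADAM13, at 300 pg by the sample labels and 0.5 ng by the series text. How many embryos or explants were pooled for an array is not stated in the labels. Values are log2 intensities after GC-RMA, a background correction and normalization that gives 1 value per probe set, and 1 unit is a doubling.

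Cranial neural crest cells arise at the border of the neural plate, next to future epidermis, placodes and neural tissue and above mesoderm. They later leave that border and form much of the face. A dissected explant can hold some of the neighbouring tissues, and the embryo moves through neural tube closure over the stages that the label spans. A change in cell number and a change in RNA per cell cannot be told apart in such bulk samples.

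Experiment 3 stood farther from each of the other experiments than they stood from each other, as its selection requires. The values here describe that choice and do not test it. The mean absolute difference over all probe sets, between means of 3 arrays, was 0.33 log2 for experiment 3 against experiment 1, 0.32 against experiment 2 and 0.267 for experiment 2 against experiment 1. Differences of at least 1 log2 were found at 859, 761 and 459 probe sets in these comparisons. Experiments 2 and 1 were the nearest pair within each injected group as well, on the same arrays that the selection used. The MO13 arrays were the farthest apart, with 0.466 for experiment 3 against experiment 1, 0.398 against experiment 2 and 0.367 between experiments 2 and 1. Within the injected groups, 46.4% of the sum of squares lay between experiment 3 and the others, 28.0% between experiments 2 and 1, and 25.6% in the remaining 4 of 6 degrees of freedom.

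A probe set is called set apart here where experiment 3 differed by at least 1 log2 with the injected group as a block and its 3 arrays did not overlap the other 6. Of 15491 probe sets 2417 (15.6%) did not overlap, and 509 (3.29%) were set apart, of which 337 (2.18%) were higher and 172 (1.11%) lower in experiment 3. Among 7531 genes represented by their brightest probe set, 171 (2.27%) were higher and 77 (1.02%) lower. The direction depended on the scaling. With each array centred on its median, 496 probe sets were set apart, 251 higher and 245 lower, so the share of higher ones went from 66.2% to 50.6%. Array medians were 5.07, 5.04 and 5.07 in experiment 3 and 4.88 to 5.01 in the others, and centring moved the difference of every probe set down by 0.11. Under both scalings 423 probe sets were set apart.

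**Figure D1:**
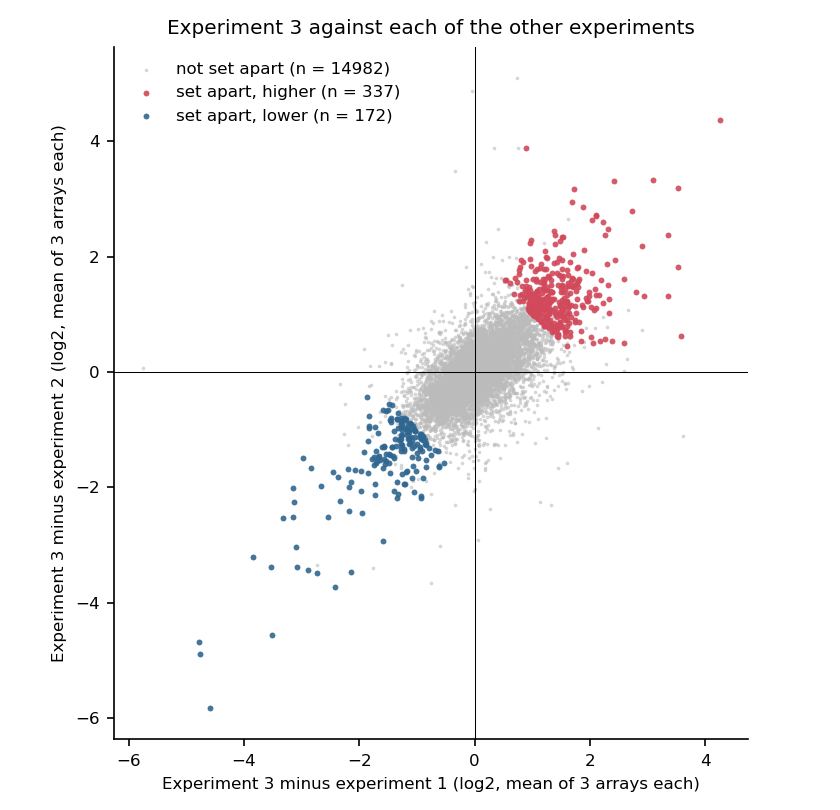
Each point is 1 probe set, with the difference of experiment 3 from experiment 1 on the x axis and from experiment 2 on the y axis, in log2 and as means of 3 arrays each. The 337 probe sets set apart as higher (red) and the 172 set apart as lower (blue) lie along the diagonal away from the others (grey).

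The probe sets that were set apart were of intermediate brightness. By the mean over the 9 arrays, 0.071% of those under 2, 5.47% of those from 2 to 4, 9.11% from 4 to 6, 5.19% from 6 to 8, 1.71% from 8 to 10 and 0.0791% of those from 10 to 14 were set apart. The brightest transcripts of these explants, such as those of ribosomal proteins, thus seldom moved by a doubling. Just inside the limit of 1 log2 lay babam2.L (1.0017), dkk1.S (-1.0017) and csnk1g1.S (-1.0017), and just outside it lay npc2.S (0.998) and tmem263.S (0.997). There were 118 probe sets without overlap between 1 and 1.1 in size and 128 between 0.9 and 1.

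The largest differences upward included those of nupr1.L, cldn6.1.S, eif2b3.L and fkbp11.L. The 15 with the largest differences (probe sets set apart, with 1 informative symbol and a mean of at least 6) were 2.78 to 5.31-fold higher. The stress-induced nuclear protein gene nupr1.L read 9.44, 7.42 and 7.80 in CMO, MO13 and MO13+C13 of experiment 3, against 4.85, 5.58 and 7.39 as the lowest, median and highest of the other 6 arrays. Its difference was 2.41 (SD over the 3 injected groups 0.166), and the MO13 array of experiment 3 was only 0.03 above the highest of the others. The ER-resident prolyl isomerase gene fkbp11.L read 8.72, 8.56 and 8.15 against a range of 5.85 to 7.58 (median 6.71), a difference of 1.80 (SD 0.491).

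Of these 15, eif2b3.L, eif3a.S and eef1d.S belong to the translation factor list, in which 57.7% were higher beside 51.7% of all genes. The initiation factor gene eif2b3.L, a subunit of the exchange factor of eIF2, read 7.40, 7.61 and 7.86 in experiment 3 against 5.06 to 6.29 (median 5.73), a difference of 1.87 (SD 0.368). The eIF3 subunit gene eif3a.S read 8.86, 9.38 and 8.53 against 6.06 to 8.2 (median 7.37), a difference of 1.65 with an SD of 1.24, the widest spread over the groups among the 15. The elongation factor gene eef1d.S read 8.56, 8.39 and 8.51 against 6.48 to 7.33 (median 7.06), a difference of 1.5 (SD 0.285). The 3 arrays of experiment 3 were clear of the others for each gene, by the least for eif3a.S. The proteasome subunit gene psma3.S (8.26, 8.06 and 8.27 against 5.95 to 7.46), the pyrimidine synthesis gene umps.L (8.99, 8.81 and 8.58 against 5.56 to 8.41) and the cap-methyltransferase gene tgs1.L (7.95, 7.77 and 7.27 against 4.91 to 6.33) were higher by 1.63, 1.59 and 1.67.

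The gene fbxo11.L, a substrate receptor of a ubiquitin ligase, read 10.09, 10.39 and 10.25 in experiment 3 and 8.32 to 9.04 (median 8.77) in the others, a difference of 1.51 (SD 0.203), and its mean over the 9 arrays was the highest of the 15. The telomere-binding protein gene terf2.L (6.92, 7.15 and 7.42 against 5.32 to 5.99) and the formin-binding protein gene fnbp4.L (8.67, 8.49 and 8.43 against 6.28 to 7.51) were higher by 1.47 (SD 0.206) and 1.62 (SD 0.153). The other 4 were tstd1.S (1.72), the BRCA1 partner gene bard1.L (1.57), the chromatin cofactor gene atf7ip.S (1.57) and the tight junction gene cldn6.1.S (2.19), which is described with the epidermal genes.

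The largest differences downward included those of gpnmb.L, hal.1.L and slc30a2.L. The 15 with the largest differences were 2.90 to 8.93-fold lower. The transmembrane glycoprotein gene gpnmb.L, known from pigment cells and macrophages, read 4.74, 3.96 and 4.45 in experiment 3 against 7.14 to 7.95 (median 7.55), a difference of -3.16 (SD 0.357). The histidine ammonia lyase gene hal.1.L read 3.82, 4.83 and 4.75 against 5.92 to 8.35 (median 7.83), a difference of -3.07 (SD 0.268). For gpnmb.L more than 2 log2 separated the groups of arrays, while for hal.1.L the CMO array of experiment 2, at 5.92, came nearest. The zinc transporter gene slc30a2.L read 5.19, 5.44 and 4.90 against 7.0 to 7.71 (median 7.53), a difference of -2.29 (SD 0.0575).

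Several of the lower genes differed by nearly the same amount in every injected group. The cytochrome c oxidase subunit gene cox4i2.S read 7.85, 7.67 and 7.64 against 9.52 to 10.04 (median 9.71), a difference of -2.02 with an SD of 0.0301. The large-subunit ribosomal protein gene rpl35.L read 6.25, 6.27 and 5.84 against 7.26 to 7.95 (-1.59, SD 0.0826), and the small-subunit gene rps20.L 4.70, 5.04 and 4.73 against 6.71 to 7.58 (-2.28, SD 0.235). The prostaglandin D synthase gene hpgds.S, which varied more over the groups, read 8.45, 8.80 and 9.03 against 10.10 to 11.08 (-1.68, SD 0.415). The other 8 were abracl.L (-1.80), the kinetochore gene spc24.L (-1.77), the EF-hand protein gene chp1.L (-1.65), pnhd.L (-1.63), which encodes the secreted protein Pinhead of frogs, jpt2.L (-1.62), the valine-breakdown gene hibadh.L (-1.58), the deoxycytidine kinase gene dck.2.L (-1.56) and gon4l.L (-1.54). The gap between the arrays of experiment 3 and the nearest other array was smallest for spc24.L (5.90 against 6.31) and dck.2.L (5.36 against 5.84).

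**Figure D2:**
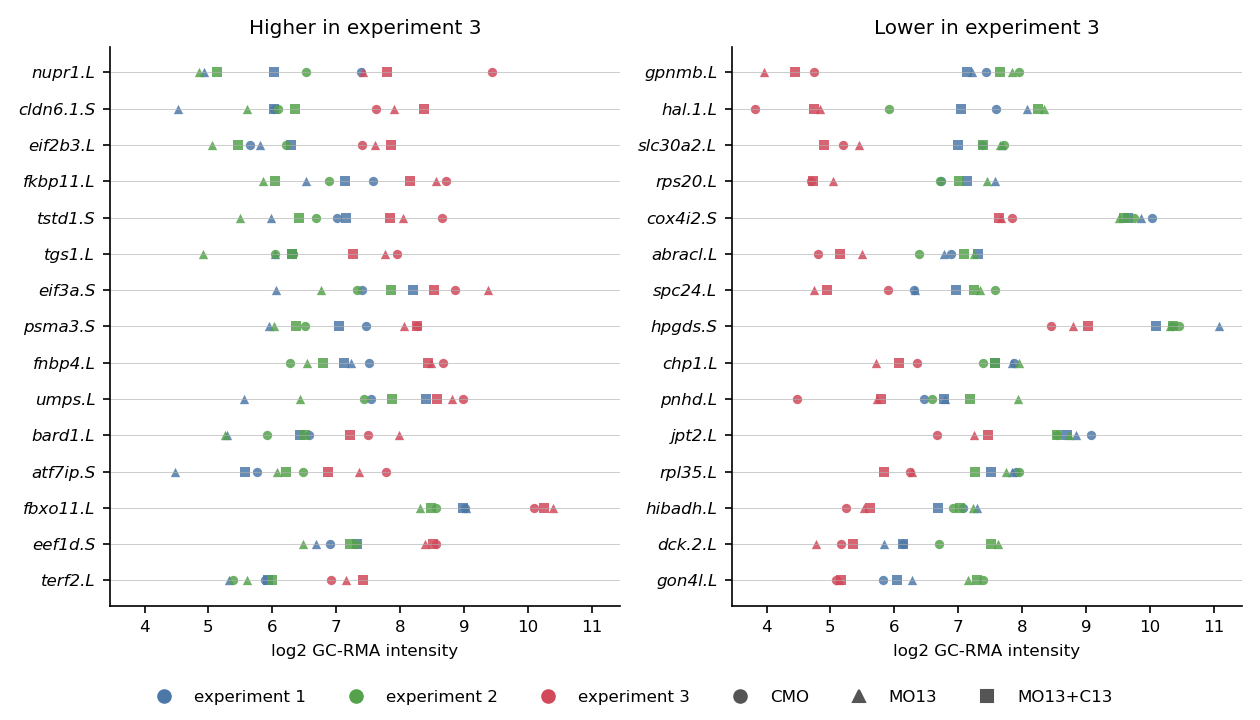
Log2 GC-RMA intensity of the 15 genes with the largest differences in each direction, 1 point per array, coloured by experiment and shaped by injected group. The red points of experiment 3 lie to the right of all others in the left panel and to the left of all others in the right panel, as the choice of genes requires.

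Xenopus laevis carries most genes as a long (.L) and a short (.S) copy whose transcripts are nearly alike, so a probe set may also bind the other copy. The counts that follow run over probe sets set apart, so a gene with several of them counts more than once. For 65 of the higher probe sets the gene had other probe sets. Their median was above 0 in 44 cases and at least 1 in 14 (median 0.27). The other copy of the gene was above 0 for 42 of 63 and at least 1 for 5 (median 0.16). For the lower set the median of the other probe sets was below 0 for 22 of 27, none by 1 log2 (median -0.24). The other copy was below 0 for 21 of 33, with 4 by at least 1 (median -0.15). Directions were thus shared within a gene more often than the 51.7% higher and 48.3% lower of all genes, and sizes mostly were not. The excess was not tested. Both probe sets of eif3a.S were higher (1.65 and 1.71) while eif3a.L differed by 0.01. For psma3.S (1.63) the copy psma3.L differed by -0.07, and for rpl35.L (-1.59) a second, brighter probe set differed by 0.05. Brighter second probe sets also differed by less for tgs1.L (0.47 beside 1.67), pnhd.L (-0.76 beside -1.63) and jpt2.L (-0.63 beside -1.62). The copies agreed for hibadh (-1.58 for .L and -1.06 for .S) and hpgds (-1.68 for .S and -1.08 for .L). Of the probe sets set apart with a copy letter 57.0% were .L, beside 58.5% of all.

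Markers of the dissected tissue were as often higher as lower in experiment 3. Of 32 neural crest genes 16 were higher and 16 lower, with a median difference of 0.03 (0.01 over all genes), and none was set apart, beside 2.27% higher and 1.02% lower of all genes. With centred arrays 11 were higher and 21 lower (34.4% and 65.6%), beside 36.4% and 63.6% of all genes. A mean under 3, a level at which a probe set may only read background, was found for 8 of the 32. The crest transcription factor gene snai2.L read 9.67, 9.83 and 9.54 in experiment 3 and 9.43 to 9.94 in the others. The gene tfap2a.L read 10.92, 10.74 and 10.59 against 10.36 to 10.76. The arrays of experiment 3 lay within or beside the others for both genes. Arrays did not overlap for 1 higher and 3 lower members (3.12% and 9.38%, beside 9.22% and 7.3% of all genes), lmo4.2.L (-0.54), id3 (-0.41), the dim snai2.S (0.76) and the epithelial-to-mesenchymal transition gene snai1.S (9.71, 9.85 and 9.71 against 9.86 to 10.53, a difference of -0.51). The largest difference of the list was that of the dim cadherin gene cdh11.S (1.72, 1.23 and 1.32 against 1.64 to 4.39, a difference of -1.28), whose arrays overlapped. The chemokine receptor gene cxcr4.S had the largest difference upward (9.43, 8.81 and 9.05 against 6.68 to 9.32, a difference of 0.82) and overlapped, and cxcr4.L differed by -0.43.

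For plate border and neural lists the medians were also near that of all genes. Of all genes 51.7% were higher (36.4% when centred), 2.27% were set apart as higher and 1.02% as lower. Of 23 plate border and placode genes 12 were higher (7 when centred), with a median of 0.03, and 1 was set apart, the placode transcription factor gene ebf2.S. It read 6.51, 6.57 and 5.88 against 4.66 to 5.48, a difference of 1.18 (SD 0.486), and its copy ebf2.L differed by 0.03. Of 32 neural plate genes 13 were higher (9 when centred, median -0.06), and none was set apart. The midbrain-hindbrain gene en2.L (7.74, 7.3 and 8.05 against 5.90 to 7.41) differed by 1.08 and its array of MO13 overlapped. The copy en2.S differed by -0.05. Of 25 neuronal genes 18 were higher (10 when centred, median 0.06), but 17 had a mean under 3. The RNA-binding protein gene elavl3.L was set apart, with 5.38, 5.45 and 4.32 against 2.28 to 3.54 and a difference of 2.01 (SD 1.04).

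Epidermal genes were set apart in both directions. Of 48, 27 were higher and 21 lower, with a median of 0.07, beside 51.7% and 48.3% of all genes. With centred arrays 22 were higher and 26 lower, beside 36.4% and 63.6% of all genes. Of the 48, 2 were set apart as higher and 3 as lower (1 and 4 when centred), beside 2.27% and 1.02% of all genes. The tight junction gene cldn6.1.S read 7.62, 7.90 and 8.37 in experiment 3 against 4.53 to 6.35 (median 6.03), a difference of 2.19 (SD 0.635), and its copy cldn6.1.L differed by 0.78. The E-cadherin gene cdh1.S read 2.62, 2.90 and 2.23 against 4.79 to 6.68 (median 5.73), a difference of -3.08 (SD 0.501). These were the largest differences of the list, and they ran in opposite directions for 2 proteins of epithelial cell contacts. The epidermal ligand gene bmp7.2.L (4.27, 3.13 and 2.97 against 4.31 to 6.09) differed by -1.72, and the desmosome genes pkp3.S and pkp3.L by 1.0 and -1.0. The epithelial adhesion gene epcam.L, far brighter, read 8.96, 9.10 and 9.10 against 9.72 to 10.24, a difference of -0.96 that fell just short of the limit. The summed linear intensity of the list was 12600 to 13600 on the arrays of experiment 3 and 10100 to 14900 on the others.

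Genes of the list for ionocytes and small secretory cells were lower in experiment 3, most of them at dim levels. All 12 that were measured were below the other experiments, beside 48.3% of all genes (63.6% when centred). Their median was -0.31 (-0.42 when centred). None was set apart, 1 did not overlap (8.33%, beside 7.3% lower of all genes) and 7 had a mean under 3. The anion exchanger gene slc4a1.L, the 1 without overlap, read 2.98, 2.93 and 2.78 against 3.15 to 3.74, and the proton pump subunit gene atp6v0d1.L 4.43, 4.81 and 5.42 against 5.17 to 5.82. The members with the highest means were such subunit genes, atp6v1e1.L (-0.25), atp6v1a.L (-0.34) and atp6v0d1.L (-0.55). For the dim foxa1.S (-0.02) and tph1.L (-0.03) the difference was slight. Against experiment 1 alone and against experiment 2 alone, 10 of the 12 were lower in each case, with medians of -0.15 and -0.46. The MO13+C13 array of experiment 2 stood out, with a list median of 3.57 beside 1.82 to 2.42 on all other arrays. It read 5.43 for ca12.L, 4.04 for ubp1.L and 3.7 for atp6v1b1.L. The 5 cement gland genes had a median of -0.65 and 4 were lower, but all 5 had means under 4. Of 23 genes of multiciliated cells 13 (56.5%) were lower, beside 48.3% of all genes (16 when centred). The 1 set apart was ccno.L, which drives centriole amplification (1.89, 1.70 and 2.19 against 2.66 to 3.46, a difference of -1.05). Of all genes 1.02% were set apart as lower.

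Most markers of mesoderm and endoderm were near the lowest values on all arrays. Of 46 muscle and paraxial mesoderm genes 41 had a mean under 3, as had 9 of 12 notochord, 19 of 22 endoderm and 28 of 29 blood, heart and kidney genes. Their medians were -0.01, 0.06, 0.00 and 0.00. The members set apart were dim in the notochord list (admp.S, 1.53, 2.02 and 2.38 against 2.59 to 4.29, a difference of -1.25). So were those of the muscle list, ripply2.2.S (-1.28) and cav3.2.S (1.25). The blood, heart and kidney list held the dim lhx1.L (-1.46), and the endoderm list held cer1.S (-1.46, mean 4.42). Both are given below with the gastrula stage genes. Among all genes 2.27% were set apart as higher and 1.02% as lower. The notochord genes not.L (5.53, 6.91 and 7.09 against 4.00 to 6.68) and not.S (2.90, 3.65 and 3.85 against 1.65 to 3.70) differed by 1.16 and 1.12 and overlapped.

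Of the genes of the gastrula organizer and early patterning, some were lower at dim levels. Of 48 gastrula stage genes 28 were lower (42 when centred), 34 had a mean under 3, and the median over the 48 was -0.02 (-0.13 when centred). Of all genes 48.3% were lower (63.6% when centred), with medians of 0.01 and -0.09. The head-inducing antagonist gene cer1.S read 4.19, 3.51 and 2.65 against 4.37 to 5.37, a difference of -1.46 (SD 0.468). The LIM homeobox gene lhx1.L read 1.78, 1.61 and 1.45 against 2.49 to 3.92 (-1.46, SD 0.255), and the Wnt antagonist gene dkk1.S 1.64, 2.61 and 2.73 against 2.76 to 4.51 (-1.0, SD 0.365). These 3 of 48 were set apart as lower (1.02% of all genes), though lhx1.L and dkk1.S had means under 3 and dkk1.S was 0.03 clear of the others. The BMP-binding follistatin gene fst.L was the 1 set apart as higher, beside 2.27% of all genes (4.70, 3.45 and 4.64 against 2.29 to 3.42, a difference of 1.47). With centred arrays 0 were set apart as higher. The gene gs17.L read 5.66, 5.26 and 4.61 against 5.38 to 9.23. It differed by -2.21 and overlapped, since it also differed by 2.90 between experiments 2 and 1 (limma adjusted p = 0.0057). The pluripotency factor gene pou5f3.2.L (4.97, 4.27 and 4.51 against 4.72 to 5.90) differed by -0.83, and pou5f3.1.L by -0.17.

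Cell cycle genes were lower in experiment 3 by a small amount. Of 87, 65 (74.7%) were lower, with a median of -0.13, beside 48.3% of all genes and a median of 0.01. With centred arrays 72 (82.8%) were lower (median -0.23), beside 63.6% of all genes and a median of -0.09. The list is bright (median level 9.13), and all probe sets with a mean of at least 6 had a median of -0.037. Members were lower against experiment 1 in 54 cases and against experiment 2 in 68, while 27 were lower in experiment 2 than in experiment 1. The mitotic kinase gene aurkb.L read 9.55, 9.54 and 9.53 against 9.94 to 10.48 (-0.54), the anaphase activator gene cdc20.L 8.83, 9.02 and 9.01 against 9.33 to 9.65 (-0.51) and the topoisomerase gene top2a.L 9.0, 8.94 and 9.13 against 9.39 to 9.76 (-0.48). The arrays did not overlap for these 3, nor for 14 lower (16.1%) and 2 higher (2.3%) members in all, beside 7.3% and 9.22% of all genes. The survivin gene birc5.L, dim, was the 1 member set apart (2.25, 2.43 and 2.01 against 2.86 to 3.86, a difference of -1.05). Of all genes 1.02% were set apart as lower.

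Proteasome genes were more often higher than lower. Of 44, 29 (65.9%) were above the other experiments, beside 51.7% of all genes, and 27 (61.4%) when centred, beside 36.4%. The median was 0.17 (0.07 when centred). Without overlap 11 were higher (25%) and 3 lower (6.82%), beside 9.22% and 7.3% of all genes. Besides psma3.S, the core particle gene psma6.L read 9.59, 9.60 and 9.48 against 8.18 to 9.40 (0.88) and the ATPase subunit gene psmc3.S 6.21, 6.28 and 6.1 against 4.59 to 5.67 (0.91). The subunit gene psmd8.S was lower (8.56, 8.52 and 9.0 against 9.08 to 9.53, a difference of -0.59). Of 52 translation factor genes 30 were higher (20 when centred, median 0.04). The 3 described above were set apart as higher, beside 2.27% of all genes. Of 73 ribosomal protein genes 41 were higher (16 when centred, median 0.02). The 1 set apart, as lower, was rps20.L, beside 1.02% of all genes. The median of the 69 respiratory chain genes was 0.08 (-0.03 when centred). Centring takes 0.11 from every difference, so any list median from 0 up to that size changes sign with it, as that of all genes does.

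Of the stress regulators, 3 were set apart as higher, beside 2.27% of all genes. With centred arrays 1 was set apart as higher. In the immediate early and stress list 20 of 37 were higher (14 when centred), beside 51.7% of all genes (36.4% when centred). The NF-kB inhibitor gene nfkbia.L read 8.04, 8.70 and 8.38 against 6.85 to 7.56 (1.15, SD 0.452), with nfkbia.S at 8.16, 7.89 and 7.95 against 6.86 to 7.37 (0.89). Both copies were above all 6 other arrays. The ER chaperone gene hspa5.S (8.26, 7.89 and 7.63 against 6.23 to 7.47) and the early response gene egr1.L (4.96, 4.75 and 4.55 against 3.1 to 4.35) differed by 1.01 and 1.02. The copy hspa5.L differed by 0.197. Members xbp1.L, hsp90b1.S and hsp90b1.L of the same list were lower, by -0.838, -0.445 and -0.13. In the list of MHC and antigen presentation 7 of 11 were lower (median -0.18), with b2m.S at -1.43 and cd74.L at -0.80, both with overlap. Its interferon-response transcription factor gene irf1.L read 5.69, 6.69 and 6.34 against 3.54 to 5.39 (1.73, SD 0.373) and was the 1 member set apart, and irf1.S differed by 1.0 with overlap.

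Signalling and adhesion lists held few members set apart, and those of FGF and MAP kinase and of Notch genes held 0. Among all genes 2.27% were set apart as higher and 1.02% as lower. Without overlap, 5 of 23 FGF and MAP kinase genes (21.7%) and 7 of 42 Wnt genes (16.7%) were lower, beside 7.3% of all genes. Higher without overlap were 0 and 3 (7.14%) of these lists, beside 9.22% of all genes. The median of the FGF and MAP kinase list was -0.13. The BMP receptor gene bmpr1a.L read 6.46, 6.63 and 6.19 against 2.51 to 5.22 (2.33, SD 0.45), and its 2 other probe sets differed by 2.12 and 2.1, while bmpr1a.S differed by -0.12. The 42 BMP and TGF-beta pathway genes had a median of -0.01 and 20 were higher. In that list 2 were set apart as higher (bmpr1a.L and fst.L) and 1 as lower (bmp7.2.L). In the retinoic acid list 13 of 18 (72.2%) were lower (median -0.06), beside 48.3% of all genes. Its 2 members set apart were both lower. They were the retinol dehydrogenase gene rdh10.S, with 4.78, 4.17 and 4.04 against 5.80 to 7.33 (-2.25, SD 0.415), and the retinoid receptor gene rxrb.S (-1.15). Their copies rdh10.L and rxrb.L differed by only -0.33 and -0.045. The integrin gene itga3.L read 2.56, 3.07 and 3.51 against 4.85 to 6.51 (-2.58, SD 0.284). In its list of extracellular matrix and integrin genes 23 of 38 (60.5%) were higher, beside 51.7% of all genes. When centred, 14 (36.8%) were higher, beside 36.4% of all genes. The matrix glycoprotein gene sparc.L was set apart as higher (1.16), but with centred arrays 0 of that list were. The Wnt feedback gene axin2.S read 9.48, 9.47 and 9.71 against 10.23 to 10.76 (-0.86), short of the limit, in a list of 42 with a median of 0.00. The copy axin2.L differed by 0.12. The 1 Wnt list member set apart was dkk1.S (-1.0), described above. Of 23 cadherin and catenin genes 17 (73.9%) were lower (median -0.14), beside 48.3% of all genes. The 2 set apart were cdh1.S, described above, and the N-cadherin gene cdh2.S (8.92, 8.52 and 8.95 against 9.44 to 10.01, a difference of -1.02, with 0.00 for cdh2.L).

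**Figure D3:**
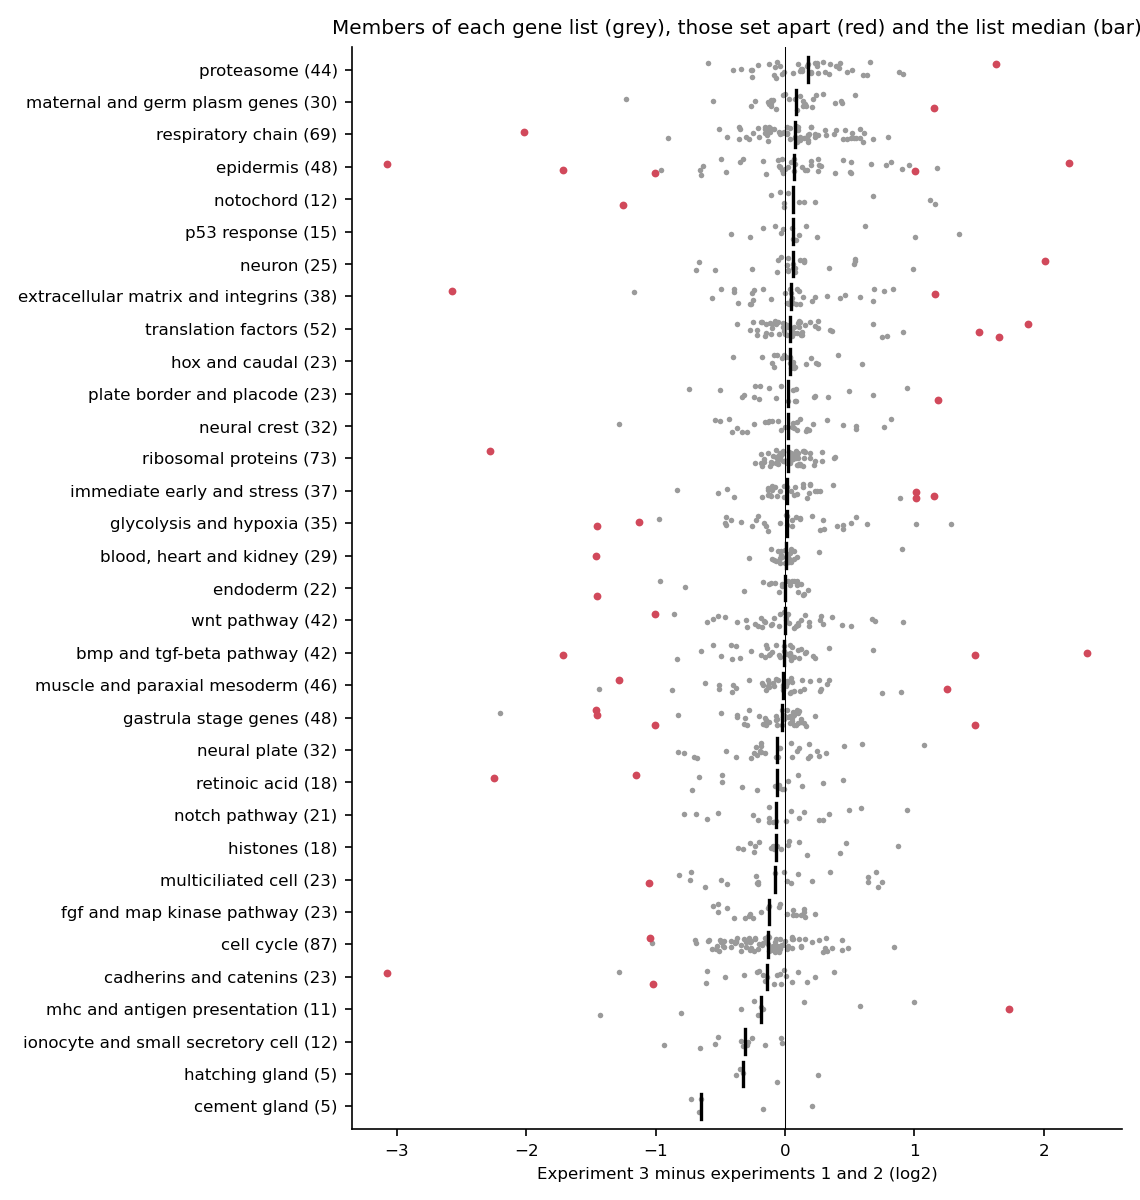
Difference of experiment 3 from experiments 1 and 2 (log2, x axis) for every measured member of each gene list, with the number of members in brackets, members set apart in red and the list median as a bar. Medians run from -0.65 for the 5 cement gland genes to 0.17 for the 44 proteasome genes, and single members reach -3.08 and 2.33.

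Differences between injected groups inside the set-apart probe sets were not alike in the 3 experiments. In the 337 higher probe sets the median difference of MO13 from CMO was -0.45 in experiment 1, -0.23 in experiment 2 and -0.04 in experiment 3, and that of MO13+C13 from MO13 was 0.55, 0.27 and -0.11. The median levels in CMO, MO13 and MO13+C13 were 4.67, 4.19 and 4.82 in experiment 1, 4.61, 4.33 and 4.71 in experiment 2 and 6.02, 6.03 and 6.01 in experiment 3. The MO13 arrays of experiments 1 and 2 thus read lowest in this set and the arrays of experiment 3 were level. MO13 was below CMO at 76.9%, 70.0% and 53.7% of the 337, beside 53.5%, 45.7% and 49.2% of all probe sets. In the 172 lower probe sets the medians of MO13 against CMO were 0.07, 0.18 and -0.07. The choice of probe sets by non-overlap used these arrays, so the medians carry no test. Among the 15 genes named as higher, MO13 lay more than 1 log2 below CMO for 9 in experiment 1, 5 in experiment 2 and 1, nupr1.L, in experiment 3.

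**Figure D4:**
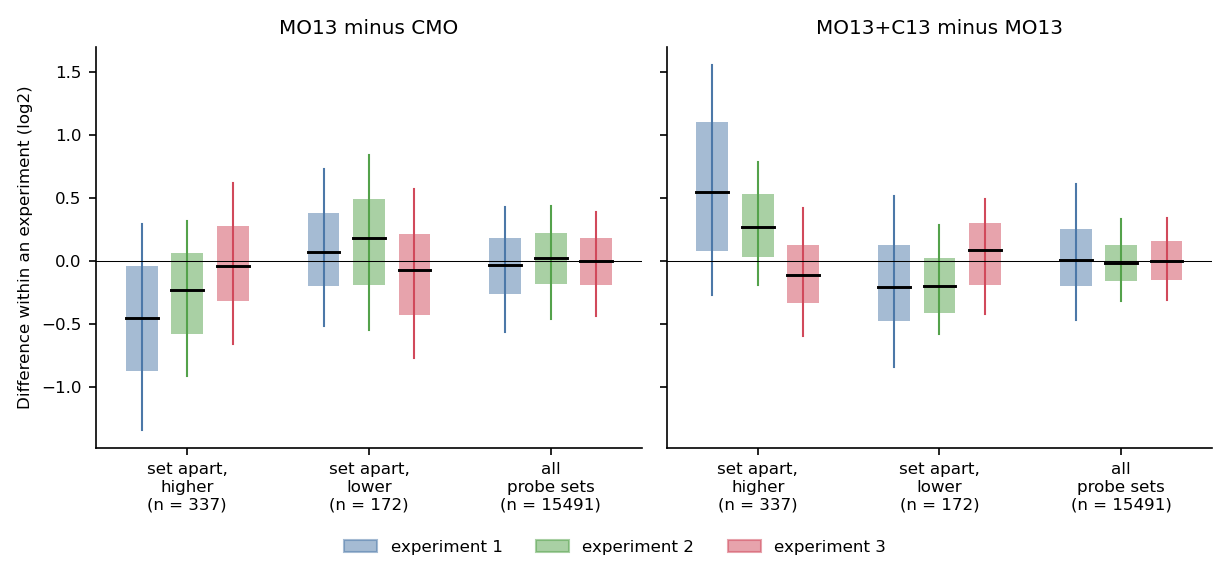
Differences between injected groups within each experiment (log2, y axis) in the set-apart probe sets and in all probe sets, with bars from the lower to the upper quartile, lines from the 10th to the 90th percentile and medians in black. In the higher set the medians of MO13 minus CMO are -0.45, -0.23 and -0.04 and those of MO13+C13 minus MO13 are 0.55, 0.27 and -0.11 for experiments 1, 2 and 3.

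Whether an injection acted differently in experiment 3 was tested with limma as an interaction, which does not depend on the level of experiment 3. No probe set passed for MO13 against CMO (0.0%), MO13+C13 against MO13 (0.0%) or MO13+C13 against CMO (0.0%) after Benjamini-Hochberg adjustment. At an unadjusted p under 0.05 there were 800, 1108 and 764 probe sets, and the lowest adjusted p-values were 0.311, 0.0877 and 0.151. With a variance trend in limma, 9, 2 and 12 passed. The fit leaves 2 residual degrees of freedom.

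Several genes near the head of 2 of these tests were those of epidermal surface cells, and they were high in the CMO array of experiment 3. The larval epidermal keratin gene krt12.4.L read 4.75, 7.29 and 7.1 in CMO, MO13 and MO13+C13 of experiment 1, 6.27, 7.78 and 8.82 in experiment 2 and 8.90, 7.29 and 7.28 in experiment 3. Its copy krt12.4.S read 4.85, 6.97 and 6.76, then 4.83, 6.84 and 7.58, then 8.42, 7.13 and 6.07. In experiments 1 and 2 both copies were lowest in CMO, and in experiment 3 they were highest in CMO. The gene of intelectin, itln1.L, a lectin secreted by goblet cells of the larval skin, read 2.65, 4.94 and 4.11 in experiment 1, 1.75, 4.43 and 5.3 in experiment 2 and 7.09, 4.79 and 3.23 in experiment 3, the same order.

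Turns of sign were counted over the 7531 genes, each by its brightest probe set. MO13 lay above CMO by at least 1 log2 in experiments 1 and 2 and below it by at least 1 in experiment 3 for 3 of them. These were krt12.4.L, krt12.4.S and itln1.L. The opposite turn by at least 1 log2 was found for 0 genes. The interaction for MO13+C13 against CMO was -4.68 for krt12.4.S (limma adjusted p = 0.218), -4.07 for krt12.4.L (0.524) and -6.37 for itln1.L (0.524). With the variance trend these 3 passed, as did 2 probe sets of otogl2.L, an otogelin-like gene, and xepsin.L, a serine protease gene. The limma adjusted p ran from 0.0023 to 0.0493 over the 12 probe sets, 6 of them without a symbol. The reading of xepsin.L was 2.06 in CMO of experiment 3 and 1.02 to 1.52 on the other arrays, levels that may only be background. The otogl2.L probe set named by the tests read 0.85, 4.19 and 3.64 in experiment 1, 1.61, 4.00 and 4.53 in experiment 2 and 4.61, 3.63 and 1.81 in experiment 3, while the brightest probe set of that gene read 10.14 to 10.92 on all 9 arrays. That brightest probe set stood for otogl2.L in the count of turns. A dimmer one met the limit of 1 log2, with MO13 minus CMO at 1.28, 1.68 and -1.94 in experiments 1, 2 and 3.

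Other members of the epidermal list turned the same way by less, turned the opposite way or did not turn. The keratin gene krt70.L turned in MO13 (8.29, 6.01 and 7.61 in experiment 3, 5.78, 6.63 and 7.3 in experiment 1 and 6.44, 6.95 and 8.05 in experiment 2, an interaction of -2.96 with limma adjusted p = 0.311, and 0.0338 with the variance trend). Its copy krt70.S read 11.82, 11.81 and 12.08 in experiment 3 and 11.32 to 11.84 in the others. Of the 48 epidermal genes, 8 (16.7%) lay above CMO in MO13 in experiments 1 and 2 and below it in experiment 3, and 9 (18.8%) went the other way, beside 8.95% and 9.71% of all genes. CMO of experiment 3 was above CMO of both other experiments for 25 of the 48 (52.1%), beside 36.5% of all genes, and by at least 1 log2 for 5 (10.4%), beside 1.81%. Whether the share of epidermal cells differed between these arrays was not tested.

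**Figure D5:**
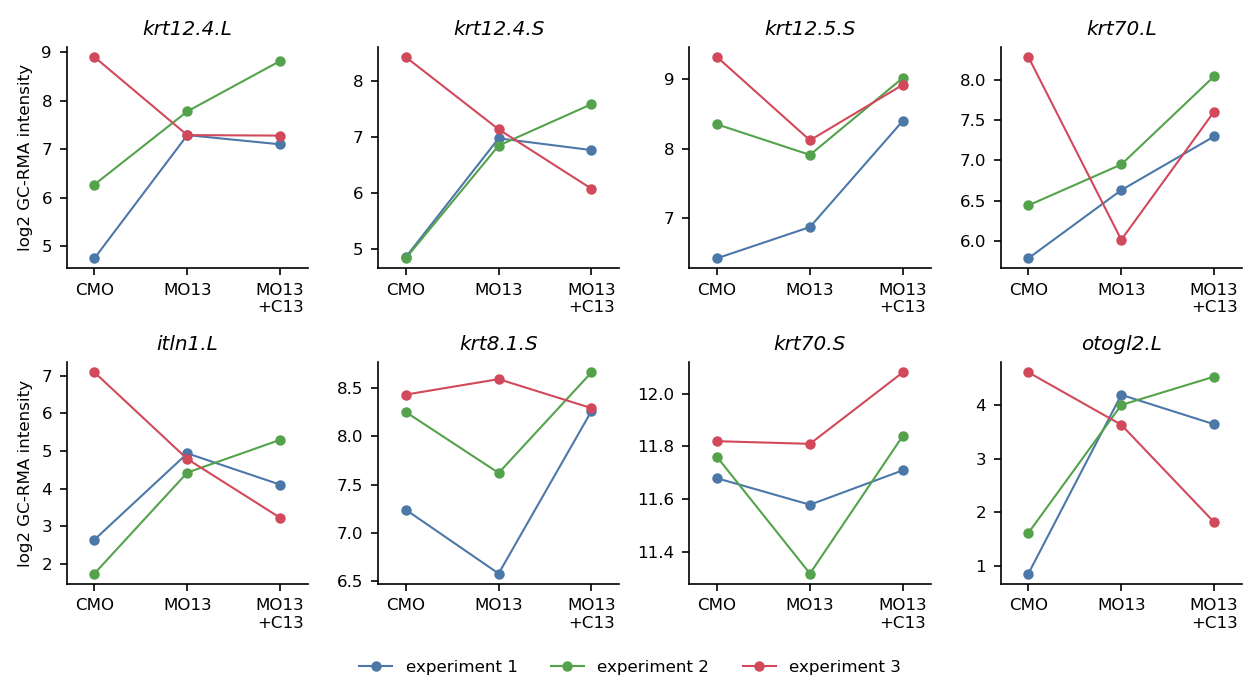
Log2 GC-RMA intensity (y axis, scaled per panel) of 7 epidermal list genes and otogl2.L in CMO, MO13 and MO13+C13 (x axis), with 1 point per array and 1 line per experiment. For krt12.4.L, krt12.4.S, itln1.L and otogl2.L the line of experiment 3 (red) starts at the highest CMO value, and the lines of experiments 1 and 2 start at the lowest values of their experiments.

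Of the genes named for the interactions, rfx5.L had the lowest p-value for MO13+C13 against MO13. This gene, which encodes a regulator of MHC class II promoters, read 4.19, 7.21 and 3.09 in experiment 1, 2.89, 6.32 and 2.52 in experiment 2 and 2.87, 2.42 and 2.63 in experiment 3. Its high values were limited to the MO13 arrays of experiments 1 and 2. Its interaction was 4.17 (limma adjusted p = 0.233, and 0.03 with the variance trend), and for MO13 against CMO it was -3.67 (0.311, and 0.0338 with the trend).

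The calls of MO13 against CMO rested on all experiments together. With experiment as a block, limma called 179 probe sets (1.16%) from the 9 arrays and 7 (0.0452%) from the 6 arrays of experiments 1 and 2, and 4 were in both. Without experiment 1 and without experiment 2 limma called 0 in each case, while 2407 and 1415 had an unadjusted p under 0.05. With no block for experiment it called 15 from the 9 arrays. The 179 all had the same sign in experiment 3, which took part in calling them. Of the 7 called without it, 6 had the same sign in experiment 3. Of the 179, 8 were among the 509 probe sets set apart. In experiment 3 capn8.3.L, the calpain gene followed in this system, read 8.11, 6.63 and 7.50, and adam33.L, the gene of ADAM13, read 3.34, 4.81 and 10.23 with the last array given C13 mRNA. The level of adam33.L is no check of the knockdown, since a morpholino can stop translation and leave the transcript.

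Experiments 1 and 2 also differed from each other. This contrast, tested with limma, uses none of the arrays of experiment 3 for its difference, but its size was part of the reason for which experiment 3 was chosen. Of 15491 probe sets 1039 (6.71%) passed, 584 (3.77%) higher and 455 (2.94%) lower in experiment 2, and among the 7531 genes 269 (3.57%) were higher and 218 (2.89%) lower. The p-values treat the 3 arrays of 1 experiment as replicates and so measure the spread between arrays, not between experiments, and with any 1 of their 6 arrays left out the count was 262 to 626. Of the 509 probe sets set apart in experiment 3, 76 (14.9%) passed here. With the mean between 2 and 8, where both kinds of call are frequent, 15.1% of those set apart and 10.9% of the others passed.

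For the genes named by p-value between experiments 2 and 1, the level of experiment 3 was near one of them or in between. The antigen-presentation gene b2m.S averaged 3.69 in experiment 1, 6.66 in experiment 2 and 3.75 in experiment 3 (2.97 between experiments 2 and 1, adjusted p = 0.000118). The replication helicase gene mcm6.2.S averaged 1.89, 6.61 and 5.5 in the probe set named here (4.72, adjusted p = 0.000118), while a brighter probe set of that gene read 9.31 to 9.99 on all arrays. The annexin gene anxa5.S averaged 7.28, 3.74 and 7.62 (-3.55, adjusted p = 0.000481). Experiment 3 was with experiment 1 for b2m.S and anxa5.S and nearer experiment 2 for mcm6.2.S. The mitochondrial carrier gene slc25a26.L averaged 8.63, 4.82 and 8.30 (-3.81, adjusted p = 0.00183), and the ventral homeobox gene ventx2.1.L 8.98, 7.59 and 7.96 (-1.39, adjusted p = 0.00116). None of the 16 genes named for this contrast was set apart in experiment 3, beside 3.29% of all probe sets. Their large differences between experiments 2 and 1 widen the range that experiment 3 has to clear. The count and the position in between are therefore partly built in. Of the 30 genes named for experiment 3, 4 passed here, among them gon4l.L (1.23, adjusted p = 0.00488) and dck.2.L (1.24, adjusted p = 0.0278).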

How the data were processed

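RNA of each of the 9 samples was hybridised to an Affymetrix Xenopus laevis array after it was amplified with the NuGen Ovation system, per the labels' protocols. The submitters' processing notes name GC-RMA and Expression Console, without versions, for the log2 values that the authors deposited. Columns of the authors' deposited lists hold the same log2 values (largest difference 0.0) and their p-values were not used. Detection calls were not used, and the number of arrays limits the precision. Replicate numbers mark shared experiments, per the labels. Deviations from group means correlated at 0.51 to 0.73 within experiments and at most -0.059 between them. The deviations of a group cancel over its arrays, so the negative values between experiments are in part built in.

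All 15491 probe sets entered every fit. By the platform annotation 9304 carried 1 symbol, 195 several and 5992 none, and 9227 matched the RefSeq gene table. Fits used limma 3.58.1 in R 4.3.3 (lmFit and eBayes, two-sided, Benjamini-Hochberg over all probe sets, threshold 0.05) with injected group and experiment as terms, and for interactions experiment 3 by injected group. The fits were tested on simulated data. In gene counts and lists each gene was represented by its probe set with the highest mean, and copies counted separately. For the genes with the largest differences, that choice was made among probe sets set apart, so a brighter one may exist.

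The members, the 33 gene lists and the tests were chosen with earlier results of these data known. Patterns for ribosomal proteins and translation factors were narrowed after the files were seen, to drop kinases and methyltransferases that share the prefix. Genes were named as the 15 largest differences in each direction, up to 4 members per list by size, up to 8 per direction of called genes (4 by p where fewer than 3 were called), and adam33 and capn8. Members added beside them as examples, the genes of sign turns and those called with a variance trend were chosen after their values were seen. Alternatives were centring, another reference experiment, filters on size and brightness, single arrays left out, no block and a variance trend.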

Additional observations from a re-analysis of the deposited data

Results flagged for a closer look

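Among the 30 genes with the largest differences, each was checked for 1 array far from the other 5 within the 6 arrays of experiments 1 and 2. This was found for 2 genes, and chance gives about 1 in 20 groups. For tgs1.L the MO13 array of experiment 2 read 4.91, below the rest. For hpgds.S the MO13 array of experiment 1 read 11.08, above the rest.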

How the results depend on the processing

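Of 15491 probe sets, 509 were set apart. The count was 793 against experiment 1 alone, 270 among probe sets at or over the median level, 766 within CMO and 1335 within MO13, 1315 at a lower limit of size and 55 at a size of 2. It ran from 436 to 733 with single arrays left out, the latter without the MO13+C13 array of experiment 3. Experiment 2 against 1 gave 1039 calls, 606 without a term for injected group and 262 to 626 with single arrays left out. Each of the 16 genes named for it kept its direction and its call under the alternatives run. The interactions gave 0 calls each, and 9, 2 and 12 with a variance trend. Among probe sets at or over the median level 1 passed for MO13+C13 against MO13 and 1 for MO13+C13 against CMO, and with no replicate block 0 passed in each. MO13 against CMO gave 179 calls, 15 with no replicate block, 7 without experiment 3 and 0 without experiment 1 or without experiment 2. Blocks of experiment follow the labels, and the fits without single experiments hold fewer arrays. No named gene that was set apart changed sign. List medians moved by more than their spread over injected groups in 53 cases and by less in 79. The cause was not tested.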
